A study of Mus musculus with 6 samples.

Results

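Interferon-stimulated genes are the genes that cells switch on when interferon reaches them. A list of 44 such genes, named by symbol, was followed through the ventral dermis of 3-week-old mice, and 44 of 44 were found among the 23412 genes of the deposited table. The genes were chosen by their known roles, without a cutoff on measured values, at a time when earlier results of these data were known. RNA of whole ventral dermis was sequenced in 3 activated beta-catenin mutants and 3 littermate controls, 1 library per mouse. The mutants were HoxB6CreERT/+; R26-YFP/+; CatnbΔex3/+, and the controls were HoxB6CreERT/+; R26-YFP/+. Mice of both groups thus carried the Cre and the YFP reporter, had a mixed CD1 and C57BL/6 background, and were exposed to tamoxifen, given to the mother by gavage at embryonic day 16.5. The Cre is active only where the HoxB6 promoter drives it and after tamoxifen, so a sample holds cells that did not recombine as well as cells that did. Recombination of CatnbΔex3 removes the part of beta-catenin that marks it for destruction. The epidermis was lifted off after trypsin, and hair follicles and muscle in the remaining tissue were not separated from it.

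Type I interferons bind IFNAR1 and IFNAR2 and, through JAK1 and TYK2, lead factors that include STAT2 and IRF9 to the interferon-stimulated response element, or ISRE. Interferon gamma binds IFNGR1 and IFNGR2 and acts through the gamma-activated site, or GAS. The products sense foreign nucleic acid, block steps of virus replication and load peptides on MHC class I. In skin, fibroblasts, keratinocytes and leukocytes can all make them.

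Promoter sequences show which of the 44 genes carry these elements in their own DNA. RefSeq windows (build GRCm38.p6) from 250 bases before to 50 bases after the start of transcription were matched for 35 of 44 members, all except Dhx58, Zbp1, Oas2, Mx1, Mx2, Usp18, Parp9, Parp14 and Rtp4. The ISRE letters, GAAA then any 2 bases then GAAA, with TTTC in place of GAAA where the element lies on the other strand, were in 18 of these 35 windows (51.4%), against 3.99% of 27025 mouse genes. The GAS letters TTCNNNGAA, which read the same on both strands, were in 11 of 35 windows (31.4%), against 9.55% of genes. Either motif was present in 23 of 35 (65.7%), against 12.9% of genes. The other 12 windows, of Cmpk2, Dtx3l, Herc6, Ifi44, Ifitm1, Irf7, Irf9, Oasl1, Oasl2, Psmb9, Tap1 and Xaf1, held neither string of letters. A match is a description of the letters and not a measured binding site. Stretches of 9 promoters that begin 160 bases before the start are printed 5′ to 3′ on the gene's strand because these genes recur below and differ in their elements. Capitals mark the matched motifs. The stretches lie at chr4:156200819-156200978 on the minus strand (Isg15), chr19:34640729-34640870 on the plus strand (Ifit1), chr19:34583369-34583528 on the plus strand (Ifit3) and chr12:26456453-26456612 on the minus strand (Rsad2). Those of Bst2, Ifitm2 and Gbp3 lie at chr8:71537473-71537632 on the minus strand, chr7:140955988-140956121 on the minus strand and chr3:142559884-142560025 on the plus strand. Those of Igtp and Irf1 lie at chr11:58199396-58199555 on the plus strand and chr11:53769854-53770013 on the plus strand.
Isg15: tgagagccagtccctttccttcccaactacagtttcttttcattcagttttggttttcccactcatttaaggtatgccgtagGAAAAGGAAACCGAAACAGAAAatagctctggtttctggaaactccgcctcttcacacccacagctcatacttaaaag
Ifit1: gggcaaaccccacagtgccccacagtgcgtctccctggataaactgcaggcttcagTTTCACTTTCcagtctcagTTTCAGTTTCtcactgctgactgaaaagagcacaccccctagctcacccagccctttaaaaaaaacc
Ifit3: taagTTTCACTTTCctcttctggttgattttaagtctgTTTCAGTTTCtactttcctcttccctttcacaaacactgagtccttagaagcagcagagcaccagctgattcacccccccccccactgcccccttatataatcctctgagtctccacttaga
Rsad2: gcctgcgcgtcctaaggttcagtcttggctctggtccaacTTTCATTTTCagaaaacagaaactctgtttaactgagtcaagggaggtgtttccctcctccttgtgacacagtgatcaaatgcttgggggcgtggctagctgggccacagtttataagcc
Bst2: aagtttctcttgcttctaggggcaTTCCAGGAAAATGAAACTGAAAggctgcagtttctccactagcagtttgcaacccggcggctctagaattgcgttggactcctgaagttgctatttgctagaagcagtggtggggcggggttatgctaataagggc
Ifitm2: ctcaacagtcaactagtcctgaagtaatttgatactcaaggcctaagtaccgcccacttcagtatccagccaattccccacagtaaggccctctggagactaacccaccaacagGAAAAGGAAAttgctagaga
Gbp3: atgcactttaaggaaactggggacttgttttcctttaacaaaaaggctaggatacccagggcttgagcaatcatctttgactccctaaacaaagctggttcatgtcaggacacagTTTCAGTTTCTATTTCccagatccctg
Igtp: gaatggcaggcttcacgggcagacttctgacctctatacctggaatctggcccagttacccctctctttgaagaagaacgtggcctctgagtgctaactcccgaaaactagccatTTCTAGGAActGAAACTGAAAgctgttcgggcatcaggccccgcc
Irf1: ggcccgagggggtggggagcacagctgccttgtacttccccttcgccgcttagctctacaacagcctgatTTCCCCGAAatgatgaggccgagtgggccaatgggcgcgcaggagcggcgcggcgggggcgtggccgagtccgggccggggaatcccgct
Isg15 had 3 overlapping ISRE matches in 1 run. Ifit1 and Ifit3 each had 2 separate ISRE matches. Bst2 had 2 overlapping ISRE matches whose first letters overlap a GAS match, and Gbp3 had 2 overlapping ISRE matches. Igtp had a GAS match and an ISRE match set apart by 2 letters, and Irf1 had a GAS match with no ISRE match.

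Levels are given in FPKM, the authors' fragments per gene length and library depth, so that genes of different length can be set side by side. Of the 44 members, 35 averaged 1 FPKM or more across the 6 libraries and entered the test, which covered 12560 genes in all. The other 9 (Dhx58, Zbp1, Oas1a, Oas2, Oas3, Oasl1, Mx1, Mx2 and Ifi44) were too low to test. The filter acts on the mean over all libraries, so a low gene could pass through the group in which it is high. Rsad2, Cmpk2, Herc6 and Xaf1 did so, with control means of 0.767, 0.950, 0.859 and 0.897 FPKM. Their differences were thus favoured by the filter. Each member rested on 6 to 1201 reads per library. The most abundant members by far were Ifitm2 and Ifitm3. Members together took 0.0828, 0.0727 and 0.0970% of gene reads in mutants 1, 2 and 3, against 0.0655, 0.0629 and 0.0673% in controls 1, 2 and 3. The groups did not overlap in that share. In bulk tissue, more cells of a type that holds these transcripts and more transcripts per cell cannot be told apart.

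Every tested member had a positive log2 difference, mutants minus controls on log2(FPKM + 1). However, Stat2 and Usp18 went below 0 with quantile scaling. They also did so with limma-voom, which replaces FPKM by reads recovered from the FPKM values, scaled to each library's reads. Cmpk2 and Usp18 went below 0 with library sex added or mutant 3 left out. No tested member passed the threshold. The median was 0.38 over the 35 members, against 0.09 over all 12560 tested genes. Of all tested genes, 71.3% lay above 0. After median-of-ratios scaling, which sets the middle gene of every library level, 35 of 35 members lay above 0, against 47.7% of all tested genes. In limma, with Benjamini-Hochberg adjustment over all tested genes and a threshold of 0.05, 0 of 35 members were called higher in mutants, where 0.143% of all tested genes (18) were called higher. None was called lower, as were 0 genes in all. At an unadjusted p under 0.05, 15 of 35 members were higher, against 10.5% of all tested genes, and 0 were lower, against 0.748%. That count of 15 rested on which mice were included, and so did the share of all tested genes, given in brackets. It was 5 without mutant 1 (5.80%), 27 without mutant 2 (13.9%) and 7 without mutant 3 (9.12%). It was 11 without control 1 (10.7%), 8 without control 2 (5.88%) and 16 without control 3 (11%). With limma-voom on reads recovered from the FPKM values, 1 member was called higher, Psmb8, where 1.44% of all tested genes were called higher. In 10 of 35 members (28.6%) every mutant lay above every control, against 13.0% of all tested genes. These were Eif2ak2, Samhd1, Ifitm1, Ifitm2, Ifitm3, Irgm1, Parp9, Psmb8, Psmb9 and Xaf1. Of these, Xaf1 passed the filter only through the mutants. In 0 of 35 every mutant lay below every control, against 2.65% of all tested genes. On the median-of-ratios scale, 18 of 35 separated with mutants above, against 12.6% of all tested genes. With mutant 2 left out the count was 31 of 35, against 35.9% of all tested genes, and with control 3 left out it was 18, against 19.4%.

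**Figure D1:**
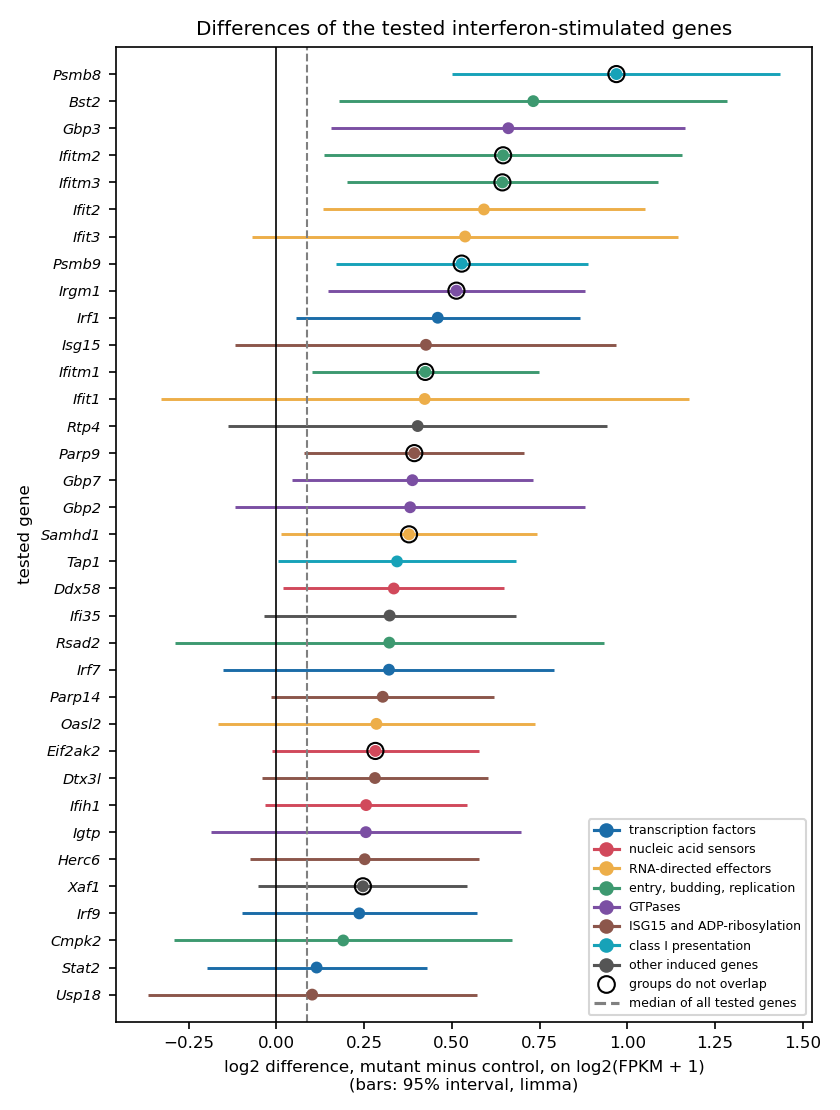
Log2 difference of each of the 35 tested interferon-stimulated genes (vertical axis), mutant minus control on log2(FPKM + 1) (horizontal axis), with 95% limma intervals as bars, colour for the role of the gene, and rings where the groups did not overlap. All 35 points lie right of 0, from 0.10 (Usp18) to 0.97 (Psmb8), on the deposited scale. Stat2 and Usp18 cross 0 with quantile scaling or with limma-voom on recovered reads. The dashed line marks the median of all tested genes, 0.09.

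The mutants were not alike. The median over tested members of log2(FPKM + 1) minus the control mean was 0.52 in mutant 1, 0.07 in mutant 2 and 0.52 in mutant 3, against 0.00, -0.12 and 0.12 in controls 1, 2 and 3. The same median over all tested genes was 0.25, -0.06 and 0.10 in mutants 1 to 3, against 0.07, -0.11 and 0.04 in controls 1 to 3. On this scale the median of mutant 2 lay between those of controls 1 and 3, and the medians of mutants 1 and 3 lay above all controls. Mutant 3 was the highest of the 6 libraries for 23 of 35 members (65.7%), although it was the highest for 7.29% of all tested genes. For the other 12 members mutant 1 was the highest, as it was for 64.1% of all tested genes. Mutant 2 was the lowest of the 3 mutants for 32 of 35 members, against 75.9% of all tested genes. The exceptions were Irf1, Ifitm1 and Ifitm2, for which mutant 3 was the lowest mutant. Mutants 1 and 3 both lay above every control for 31 of 35 members, against 35.9% of all tested genes, and Irf1, Ifit1, Rsad2 and Cmpk2 were the exceptions. Mutant 2 did not exceed the highest control for 24 of 35 members, against 81.6% of all tested genes. Control 3 was the highest control for 20 of 35, against 39.8%, and control 2 the lowest for 23 of 35, against 66.8%. After median-of-ratios scaling mutant 3 was the highest library for 26 of 35 members, against 7.03% of all tested genes, and mutant 1 for 7 of 35, against 21.4%. Mutant 2 was then the lowest mutant for 26 of 35 members, against 35.4% of all tested genes, but it failed to exceed the highest control for only 15 of 35 (42.9%), against 70.4%. On that scale the median of mutant 2 lay above those of all controls. The member medians were 0.27, 0.13 and 0.43 in mutants 1 to 3, against -0.04, -0.03 and 0.08 in controls 1 to 3. FPKM of single genes below are given without that scaling.

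**Figure D2:**
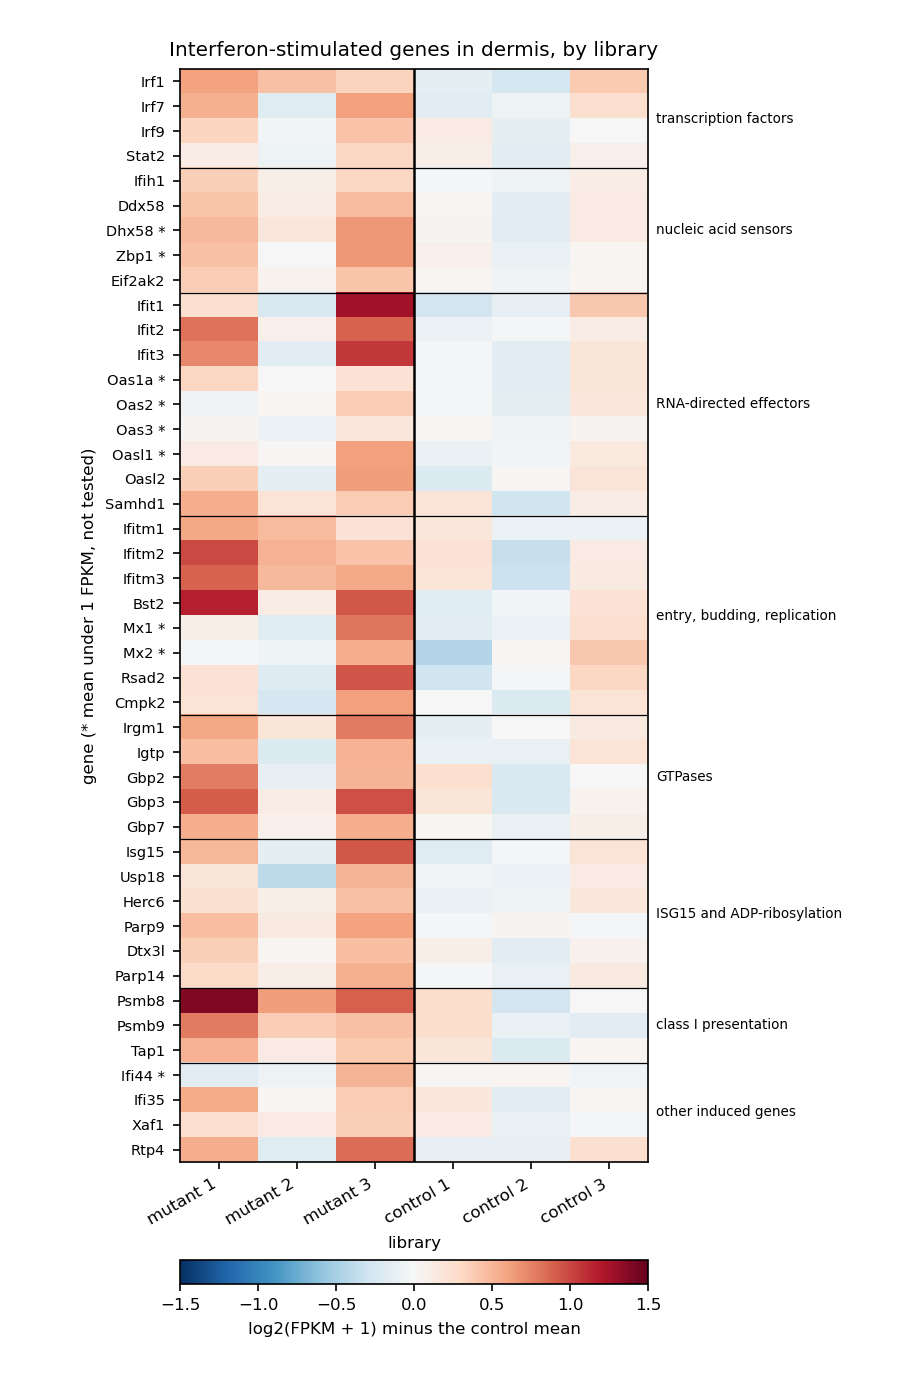
Values of 44 interferon-stimulated genes (rows, grouped by role) in 6 libraries (columns), as log2(FPKM + 1) minus the mean of the 3 controls, with red above and blue below it and colour ending at 1.5. The columns of mutants 1 and 3 are the reddest, mutant 2 is mostly pale, and asterisks mark the 9 genes that were not tested.

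The 4 transcription factors did not separate the groups in any case. Irf1, a factor induced through GAS elements, was at 10.7, 9.43 and 8.71 FPKM in mutants 1 to 3, against 6.01, 5.42 and 9.14 FPKM in controls 1 to 3. Control 3 lay inside the mutant range, so the groups overlapped, and the log2 difference was 0.46 ± 0.18 (SE; limma adjusted p = 0.367). Irf7, which amplifies type I interferon production, was at 5.17, 2.77 and 5.51 FPKM in mutants, against 2.81, 3.05 and 4.03 FPKM in controls, with mutant 2 below all controls. Irf9, the DNA-binding partner of STAT2, was at 5.19, 3.82 and 5.68 FPKM in mutants, against 4.41, 3.52 and 3.98 FPKM in controls. Stat2, its partner, had a log2 difference of 0.11 ± 0.14 (SE), with overlapping groups. The 4 factors had limma adjusted p values of 0.367, 0.665, 0.645 and 0.853 for Irf1, Irf7, Irf9 and Stat2.

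Sensors of foreign RNA or DNA were again highest in mutants 1 and 3. Ddx58, which encodes RIG-I, was at 4.76, 3.65 and 4.99 FPKM in mutants, against 3.39, 2.87 and 3.71 FPKM in controls, and mutant 2 lay just below control 3. Eif2ak2, which encodes the kinase PKR that stops translation on double-stranded RNA, was at 4.49, 3.40 and 4.66 FPKM in mutants, against 3.31, 3.08 and 3.33 FPKM in controls. Its groups did not overlap, but mutant 2 and control 3 differed by less than the controls differed among themselves. Ifih1, which encodes MDA5, was at 2.95, 2.27 and 2.83 FPKM in mutants, against 2.001, 1.91 and 2.33 FPKM in controls. Log2 differences were 0.33 ± 0.14 for Ddx58, 0.28 ± 0.13 for Eif2ak2 and 0.26 ± 0.13 for Ifih1 (SE), with limma adjusted p values of 0.403, 0.467 and 0.512. Of the untested sensors, Dhx58, the regulator LGP2, was at 1.19, 0.758 and 1.44 FPKM in mutants, against 0.609, 0.392 and 0.693 FPKM in controls. Its groups did not overlap. Zbp1, a sensor of Z-form nucleic acid, was between 0.650 and 1.59 FPKM in mutants and between 0.525 and 0.734 FPKM in controls.

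Of the 8 role lists, the effectors that act on RNA had the widest range of medians among the mutants. Their median was 0.55, -0.14 and 0.88 in mutants 1 to 3, against -0.08, -0.12 and 0.18 in controls 1 to 3. Ifit2, which binds RNA and hinders viral translation, was at 4.13, 2.05 and 4.36 FPKM in mutants, against 1.74, 1.85 and 2.13 FPKM in controls. Mutants 1 and 3 stood well above all controls and mutant 2 lay between controls 2 and 3. The log2 difference was 0.59 ± 0.20 (SE; limma adjusted p = 0.292). Ifit3, which forms complexes with the other IFIT proteins, was at 2.46, 0.868 and 3.36 FPKM in mutants, against 1.06, 0.884 and 1.37 FPKM in controls, with mutant 2 below every control. Ifit1, which binds RNA that lacks the host cap mark, was at 1.39, 0.728 and 3.83 FPKM in mutants, against 0.668, 0.860 and 1.67 FPKM in controls. These rest on 72, 41 and 215 reads in mutants, against 30, 36 and 66 reads in controls. A single library, mutant 3, was high for Ifit1, and mutant 1 lay below control 3. The log2 difference of Ifit1 was 0.42 ± 0.33 (SE; limma adjusted p = 0.738), and it was 0.01 with mutant 3 left out. Samhd1, which degrades the nucleotides that reverse transcription needs, was at 10.8, 8.28 and 9.54 FPKM in mutants, against 8.19, 5.55 and 7.73 FPKM in controls. Its groups did not overlap, though mutant 2 and control 1 were close. Oasl2, an OAS relative, was at 1.68, 0.896 and 2.23 FPKM in mutants, against 0.805, 1.11 and 1.39 FPKM in controls. Oas1a, Oas2 and Oas3 belong to the OAS family, whose active enzymes make the messenger for RNase L, and Oasl1 is a relative. These 4 genes were low, with at most 1.36 FPKM in mutants and at most 1.06 FPKM in controls.

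Genes that act on virus entry, budding and replication included the most abundant members. Ifitm3, which blocks fusion of viruses in endosomes, was at 59.5, 45.1 and 47.7 FPKM in mutants, against 36.5, 25.3 and 35.1 FPKM in controls. Ifitm2, its close relative, was at 97.9, 70.5 and 65.7 FPKM in mutants, against 56.8, 38.2 and 53.2 FPKM in controls. Ifitm1 was at 2.37, 2.12 and 1.62 FPKM in mutants, against 1.54, 1.13 and 1.12 FPKM in controls. In all 3 genes the groups did not overlap and mutant 1, not mutant 3, was the highest. Log2 differences were 0.64 ± 0.20, 0.65 ± 0.23 and 0.42 ± 0.14 (SE) for Ifitm3, Ifitm2 and Ifitm1, with limma adjusted p values of 0.231, 0.294 and 0.286. Bst2, the tether that holds budding virions, was at 9.47, 4.04 and 7.92 FPKM in mutants, against 3.14, 3.54 and 4.45 FPKM in controls. Mutant 2 lay within the controls, and mutants 1 and 3 were far above them (log2 difference 0.73 ± 0.25, SE; limma adjusted p = 0.284). Rsad2, the antiviral enzyme viperin, was at 1.03, 0.520 and 2.35 FPKM in mutants, against 0.419, 0.716 and 1.17 FPKM in controls. Cmpk2, its neighbour on chromosome 12, was at 1.23, 0.632 and 1.96 FPKM in mutants, against 0.939, 0.672 and 1.24 FPKM in controls. For this pair only mutant 3 lay above all controls. Mx1, an antiviral GTPase, was at 0.584, 0.315 and 1.60 FPKM in mutants, against 0.336, 0.403 and 0.765 FPKM in controls. These rest on 34, 20 and 101 reads in mutants, against 17, 19 and 34 reads in controls, and mutant 3 was alone in lying above all controls. Mx2, which GENCODE lists as a polymorphic pseudogene, was at 0.696, 0.638 and 1.49 FPKM in mutants, against 0.267, 0.754 and 1.27 FPKM in controls.

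**Figure D3:**
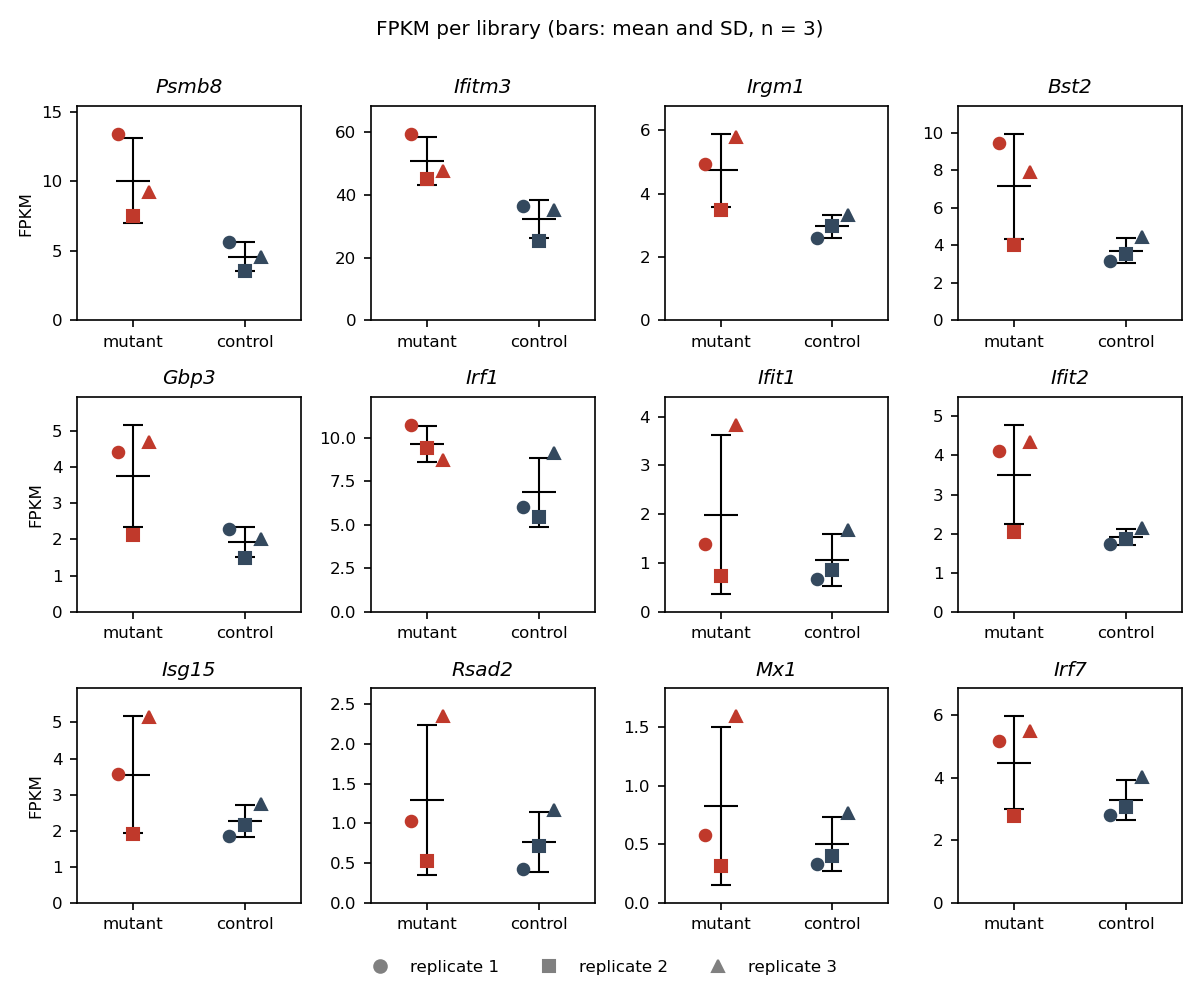
FPKM (vertical axes, starting at 0) of 12 interferon-stimulated genes in each library, mutants left and controls right, with a marker shape per replicate number and bars for the mean and SD (n = 3). Psmb8, Ifitm3 and Irgm1 separate the groups, while Ifit1, Rsad2 and Mx1 are high in mutant 3 (3.83, 2.35 and 1.60 FPKM).

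Interferon-induced GTPases attack the compartments of microbes inside cells. Irgm1, which regulates the other members of its family, was at 4.93, 3.49 and 5.78 FPKM in mutants, against 2.61, 2.97 and 3.33 FPKM in controls, without overlap. Gbp3 was at 4.43, 2.13 and 4.70 FPKM in mutants, against 2.29, 1.48 and 2.003 FPKM in controls, with mutant 2 inside the control range. Log2 differences were 0.51 ± 0.16 for Irgm1 and 0.66 ± 0.22 for Gbp3 (SE; limma adjusted p = 0.254 and 0.287). Gbp2 was at 9.70, 4.77 and 7.98 FPKM in mutants, against 6.44, 4.39 and 5.26 FPKM in controls. Gbp7 was at 5.49, 3.68 and 5.52 FPKM in mutants, against 3.55, 3.11 and 3.72 FPKM in controls. In both guanylate-binding genes mutants 1 and 3 were above all controls and mutant 2 was within them. Igtp, another immunity-related GTPase, ran from 2.11 to 4.14 FPKM in mutants and from 2.31 to 3.14 FPKM in controls.

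ISG15 is a ubiquitin-like protein that is joined to other proteins, and the gene for it showed the library pattern of the IFIT genes. Isg15 was at 3.58, 1.92 and 5.16 FPKM in mutants, against 1.86, 2.17 and 2.74 FPKM in controls, from 53, 31 and 83 reads in mutants, against 24, 26 and 31 reads in controls. Mutant 3 was the highest, and mutant 2 lay below controls 2 and 3. The log2 difference was 0.43 ± 0.24 (SE; limma adjusted p = 0.587). Usp18, which removes ISG15 and dampens the interferon receptor, was at 1.79, 0.873 and 2.49 FPKM in mutants, against 1.39, 1.32 and 1.66 FPKM in controls. Its log2 difference, 0.10 ± 0.21 (SE), was the smallest of the tested members. That difference went below 0 with mutant 3 left out (-0.10), quantile scaling (-0.04), limma-voom (-0.02) and library sex as a covariate (-0.02). Parp9, Dtx3l and Parp14 act in ADP-ribosylation, and PARP9 and DTX3L work as a complex. Parp9 was at 4.49, 3.40 and 5.09 FPKM in mutants, against 2.95, 3.15 and 2.97 FPKM in controls, without overlap. Dtx3l was at 3.92, 2.92 and 4.22 FPKM in mutants, against 3.07, 2.43 and 3.01 FPKM in controls. Parp14 was at 4.93, 4.22 and 6.03 FPKM in mutants, against 3.76, 3.53 and 4.37 FPKM in controls. In Dtx3l and Parp14 mutant 2 lay below the highest control. Limma adjusted p values were 0.302, 0.524 and 0.471 for Parp9, Dtx3l and Parp14. Herc6, the ligase that joins ISG15 in the mouse, ran from 0.967 to 1.51 FPKM in mutants and from 0.723 to 1.08 FPKM in controls.

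Class I presentation held the member with the largest difference. Psmb8, an immunoproteasome subunit that shapes the peptides shown on MHC class I, was at 13.4, 7.51 and 9.22 FPKM in mutants, against 5.62, 3.56 and 4.54 FPKM in controls. Every mutant lay above every control. The means were 10.05 ± 3.04 FPKM in mutants and 4.57 ± 1.03 FPKM in controls (SD, n = 3 each). The log2 difference was 0.97 ± 0.21 (SE; interval from 0.50 to 1.44), and limma's adjusted p of 0.106 was the smallest of all members. It was 0.0424 with voom weights on recovered reads and 0.476 with library sex as a covariate. Psmb9, a further immunoproteasome subunit, was at 5.71, 4.07 and 4.32 FPKM in mutants, against 3.72, 2.66 and 2.49 FPKM in controls, without overlap. Tap1, a subunit of the peptide transporter into the endoplasmic reticulum, was at 6.55, 4.72 and 5.93 FPKM in mutants, against 4.98, 3.55 and 4.38 FPKM in controls, with mutant 2 below control 1. Log2 differences were 0.53 ± 0.16 for Psmb9 and 0.34 ± 0.15 for Tap1 (SE; limma adjusted p = 0.227 and 0.436). Here mutant 1 was the highest library in all 3 genes, as it was for 64.1% of all tested genes. The list's median was 0.77, 0.37 and 0.44 in mutants 1 to 3, against 0.27, -0.21 and 0.01 in controls 1 to 3.

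Of the remaining induced genes, Ifi35 was at 7.48, 4.89 and 6.53 FPKM in mutants, against 5.44, 4.13 and 4.82 FPKM in controls. Xaf1, a regulator of apoptosis, was at 1.26, 1.06 and 1.43 FPKM in mutants, against 1.06, 0.752 and 0.876 FPKM in controls. Rtp4 was at 2.11, 0.894 and 2.84 FPKM in mutants, against 0.971, 0.962 and 1.53 FPKM in controls. Xaf1 alone of these separated the groups, and by very little between mutant 2 and control 1. Limma adjusted p values were 0.505, 0.558 and 0.609 for Ifi35, Xaf1 and Rtp4. Ifi44 was at 0.211, 0.290 and 0.937 FPKM in mutants, against 0.384, 0.390 and 0.322 FPKM in controls, so that mutants 1 and 2 lay below every control and mutant 3 above.

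The gap between mutants 3 and 2 varied with the role of the members. The median ratio of mutant 3 to mutant 2 in FPKM was 1.495 over tested members, 2.49 over the tested RNA-directed effectors and 1.23 over the class I genes, against 1.14 over all tested genes. A ratio of 2 or more was found for 10 of 35 tested members (Ifit1, Ifit2, Ifit3, Oasl2, Rsad2, Cmpk2, Gbp3, Isg15, Usp18 and Rtp4), against 2.0% of all tested genes. Of the 9 untested members, Zbp1, Oas3, Oasl1, Mx1, Mx2 and Ifi44 also reached it. This compares single libraries, with no replicate behind it. Mutant 2 also differed in other ways. Its ribosomal RNA precursor Rn45s took 8.10% of gene reads, against 1.96 and 2.65% in mutants 1 and 3 and 3.03 to 5.28% in controls. The hair follicle list (9 of 9 tested) summed to 2784 FPKM in mutant 2, against 5787 and 4978 FPKM in mutants 1 and 3 and 4995 to 5385 FPKM in controls. Xist was at 6.47 FPKM in mutant 2, against 0.083 and 0.184 FPKM in mutants 1 and 3. The part of these features in the lower member values of mutant 2 than of mutants 1 and 3 was not tested.

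**Figure D4:**
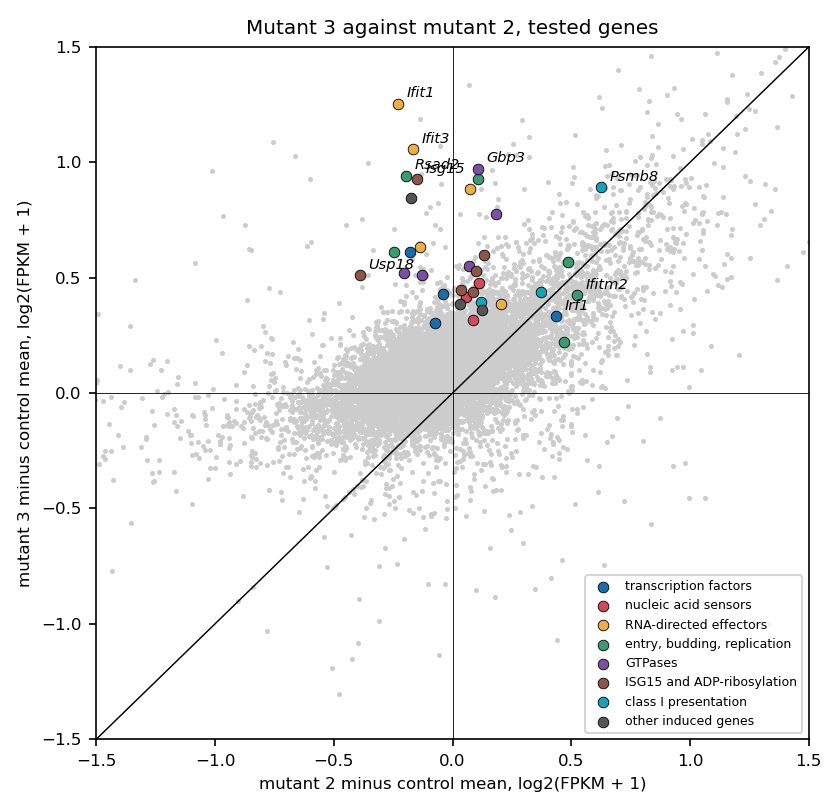
Each tested gene's log2(FPKM + 1) minus the control mean in mutant 2 (horizontal axis) and in mutant 3 (vertical axis), with all tested genes in grey and interferon-stimulated genes coloured by role. Of 35 members 32 lie above the diagonal, against 79.7% of all tested genes, and Ifit1, Ifit3, Rsad2 and Isg15 lie furthest above it; 107 genes outside the axes, none of them a member, are not drawn.

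Few reads were assigned to the interferons themselves. None of 21 ligand genes reached a mean of 1 FPKM, and 9 are listed at 0 in all libraries. Many of these are near-identical Ifna copies, and since H2-Q6, H2-Q7 and H2-T22 of the class I family are listed at 0 as well, a 0 in such a family cannot be read as a low level. Ifnb1, the interferon that fibroblasts typically make, had 3, 0 and 0 reads in mutants 1 to 3, against 0, 1 and 0 reads in controls 1 to 3. Ifng, made by T and NK cells, had 1, 0 and 1 reads in mutants, against 1, 3 and 0 reads in controls. A count of 0 allows up to 3 reads, which for Ifnb1 would be 0.183 FPKM in mutant 2 and 0.229 FPKM in control 1. Ifnk, the interferon of keratinocytes, had the most reads of the ligands, with 5, 19 and 16 in mutants, against 10, 11 and 10 in controls. No other ligand gene exceeded 3 reads in a library, so a difference in interferon transcripts was not detectable at this depth.

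Receptors and their kinases were mostly highest in mutant 1. All 9 were tested and 0 were called. Their median log2 difference was 0.30, and 6 of 9 separated the groups (13.0% of all tested genes did). Ifngr1 was at 31.8, 19.6 and 19.7 FPKM in mutants, against 17.3, 12.7 and 14.2 FPKM in controls (log2 difference 0.63 ± 0.21, SE; limma adjusted p = 0.277). Ifngr2 was at 13.9, 10.4 and 11.1 FPKM in mutants, against 9.34, 8.83 and 9.96 FPKM in controls. Ifnar1 was at 7.61, 5.68 and 5.97 FPKM in mutants, against 5.47, 4.37 and 4.97 FPKM in controls. In each of these receptor genes the groups did not overlap and mutant 1 was the highest. Ifnar2 was at 5.12, 3.67 and 3.29 FPKM in mutants, against 3.16, 2.12 and 3.25 FPKM in controls, also without overlap. Mutant 1 was the highest library for 8 of 9 receptor and kinase genes, against 64.1% of all tested genes, and mutant 3 for 0, against 7.29%. After median-of-ratios scaling the list's medians were 0.246, 0.201 and 0.085 in mutants 1 to 3, against 0.045, -0.025 and -0.001 in controls 1 to 3.

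Of 13 further STAT, IRF and feedback genes, 13 were tested, 10 lay above 0, 3 separated the groups with mutants above and 0 were called. Of all tested genes, 71.3% lay above 0 and 13.0% separated with mutants above. The median log2 difference of the 13 genes was 0.33, and the lowest was -0.04. The smallest adjusted p among them was that of Irf8, a factor of myeloid cells whose controls averaged under the 1 FPKM that the filter asks of the mean over all libraries. Irf8 was at 2.49, 1.77 and 1.51 FPKM in mutants, against 1.06, 0.580 and 0.828 FPKM in controls, without overlap (limma adjusted p = 0.136). Among other interferon-induced genes, 43 of 62 were tested, 41 lay above 0, 0 were called and the median was 0.30. The lowest adjusted p there was 0.0845 for Slfn2, which was at 6.33, 4.34 and 5.17 FPKM in mutants, against 2.82, 2.16 and 2.94 FPKM in controls. Among other class I pathway genes, 15 of 18 were tested and 0 were called, and B2m, the light chain of MHC class I, was at 230, 132 and 170 FPKM in mutants, against 129, 86.2 and 86.2 FPKM in controls. H2-D1, a heavy chain, was at 55.5, 36.2 and 33.1 FPKM in mutants, against 27.98, 21.3 and 17.6 FPKM in controls (limma adjusted p = 0.185). H2-Q6, H2-Q7 and H2-T22 are listed at 0 in all 6 libraries. Cxcl10, a chemokine that interferons induce, was at 4.83, 2.26 and 5.08 FPKM in mutants, against 1.87, 2.52 and 3.16 FPKM in controls, with mutant 3 the highest library and mutant 2 inside the control range. In the upstream sensing list 11 of 13 were tested, 10 lay above 0 and 0 were called, with a median of 0.22. Over the pathway lists together 92 of 140 genes were tested, 85 lay above 0 and 0 were called, with a median of 0.29.

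Markers of macrophages and monocytes were higher in mutants, most of all in mutant 1. Of 21 macrophage and monocyte markers 18 were tested, and Fcer1g and Ptprc were called higher (limma adjusted p = 0.0242 and 0.0442), against 0.143% of all tested genes. In 16 of 18 every mutant lay above every control, against 13.0% of all tested genes. At an unadjusted limma p under 0.05, 18 of 18 were higher, against 10.5%. The median log2 difference was 1.05, and the list summed to 623, 341 and 371 FPKM in mutants 1 to 3, against 190, 136 and 238 FPKM in controls 1 to 3. Mutant 1 was the highest library for 18 of 18 of these markers, against 64.1% of all tested genes, and mutant 3 for 0, against 7.29%. Of 11 dendritic and Langerhans cell markers 6 were tested, with a median log2 difference of 1.18. Of these, 4 separated with mutants above (13.0% of all tested genes) and 0 were called. The list summed to 168 to 300 FPKM in mutants and to 87.2 to 155 FPKM in controls. Of 7 mast cell markers 5 were tested, with a median of 1.29. Of these, 4 separated with mutants above (13.0% of all tested genes) and 0 were called, with a lowest limma adjusted p of 0.0845. The list summed to 41.9 to 75.3 FPKM in mutants and to 17.7 to 29.5 FPKM in controls. The 5 B cell markers summed to at most 0.522 FPKM in mutants and at most 0.352 FPKM in controls, with Pax5 at 0 in every library. The 15 T and NK cell markers summed to 6.28 to 7.87 FPKM in mutants and to 2.48 to 5.21 FPKM in controls, and 1 was tested. The 7 plasmacytoid dendritic cell markers summed to 97.98 to 122 FPKM in mutants and to 86.8 to 119 FPKM in controls, most of it from Ly6d and Tcf4, which other skin cells also express. Siglech, which defines these cells, was at 0.661, 0.352 and 0.549 FPKM in mutants, against 0.392, 0.289 and 0.251 FPKM in controls. Fibroblast markers, 10 of 10 tested, had a median log2 difference of 0.99, with 0 called. Of them, 7 separated with mutants above (13.0% of all tested genes), and 6 were higher at an unadjusted limma p under 0.05 (10.5%). The list's sum, mostly collagens, was 9613 to 13841 FPKM in mutants and 2765 to 10549 FPKM in controls. Lum, a collagen-binding proteoglycan with the smallest p of the list, was at 208, 121 and 140 FPKM in mutants, against 58.8, 36.9 and 69.2 FPKM in controls (limma adjusted p = 0.0845). Keratinocyte markers were also present, at 764 to 857 FPKM in mutants and 585 to 779 FPKM in controls. Median log2 differences were 0.40 for keratinocyte, 0.69 for neutrophil (2 tested), 0.53 for adipocyte, 0.34 for skeletal muscle, 0.22 for endothelial and -0.31 for hair follicle markers, with 0 called. The part of these cells in the members' differences was not tested.

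**Figure D5:**
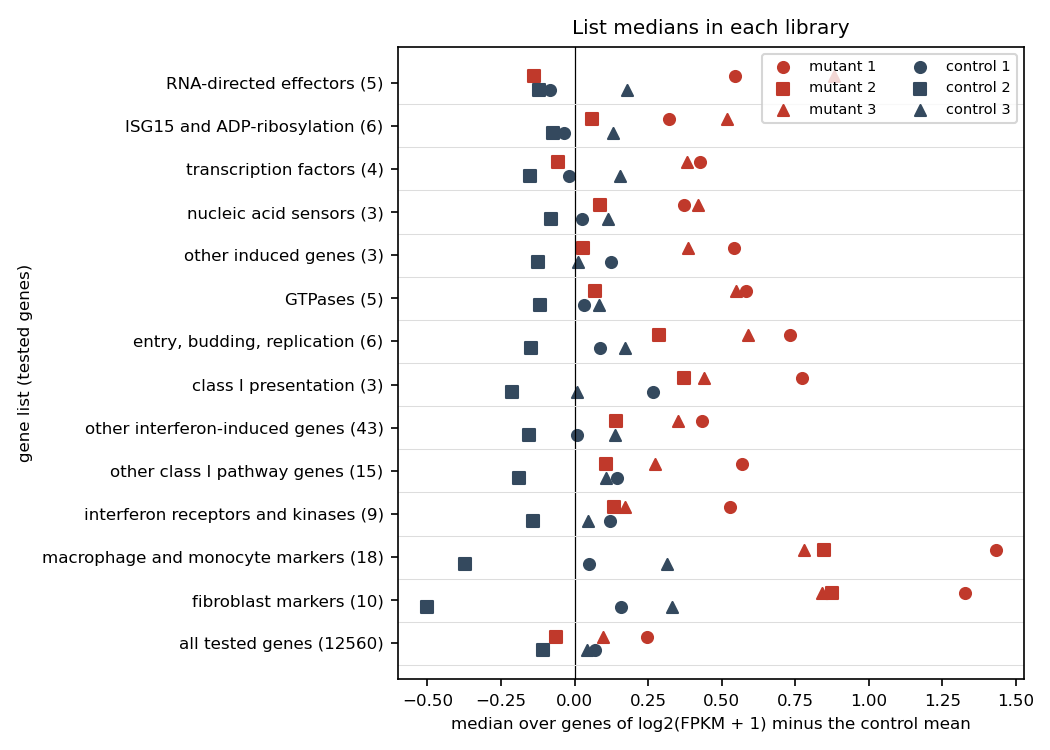
Median over tested genes of log2(FPKM + 1) minus the control mean (horizontal axis) for each gene list (vertical axis, with the number of tested genes), with mutant libraries in red above control libraries in dark blue and a marker shape per replicate number. Mutant 3 leads for the RNA-directed effectors (0.88), while mutant 1 leads for receptors and kinases (0.53) and for macrophage and monocyte markers (1.43). Mutant 1 also leads for all tested genes (0.25, against -0.06 in mutant 2 and 0.10 in mutant 3).

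Several features of the libraries bear on these values. Gene reads were 13478910, 11839144 and 12562416 in mutants 1 to 3, against 9675359, 7799565 and 8931815 in controls 1 to 3. Y-linked genes were expressed in all 3 mutants and in control 3, whereas controls 1 and 2 had at most 1 read per Y-linked gene and Xist at 55.5 and 66.2 FPKM. Sex and genotype are therefore unevenly crossed, and control 3 is the only control that expressed Y-linked genes as the mutants did. With library sex added, the sex term takes up controls 1 and 2, so the group difference is mutants minus control 3 alone. That fit gave the members a median difference of 0.25, against 0.05 for all tested genes. In that fit 3 of 35 members were higher at an unadjusted p under 0.05, against 4.04% of all tested genes. Mutant 2 had Xist at 6.47 FPKM together with Y-linked genes. The beta-catenin gene Ctnnb1 was at 193, 136 and 168 FPKM in mutants, against 201, 163 and 183 FPKM in controls. A gene-level value does not check the removal of an exon. Axin2, a target of beta-catenin, was at 9.14, 8.75 and 8.90 FPKM in mutants, against 7.71, 6.31 and 7.72 FPKM in controls, without overlap (limma adjusted p = 0.461). Of the 4 genes checked here (Ctnnb1, Hoxb6, Axin2 and Lef1), Axin2 alone lay above 0, and 0 were called. Their log2 differences ran from -0.31 (Lef1) to 0.27 (Axin2), with a median of -0.11. Besides Axin2, 1 of them separated the groups, with mutants below, against 2.65% of all tested genes.

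The members lie on 14 chromosomes, and several sit together (GENCODE M21, build GRCm38). Ifit1, Ifit2 and Ifit3 lie within chr19:34550694-34650009, and the 5 OAS genes lie on chromosome 5. Psmb9, Tap1 and Psmb8 lie side by side within the MHC at chr17:34181987-34201454. Tap1 starts at position 34187553 on the plus strand and Psmb9 at 34187764 on the minus strand, so that their starts lie 211 bases apart and the annotated gene spans overlap there. The starts of Parp9 and Dtx3l on chromosome 16 lie 681 bases apart in the same way. These pairs overlap head to head, and Irf9 with Rnf31, Igtp with Irgm2 and Ifitm2 with Gm45717 overlap on the same strand. Reads of overlapping genes cannot be told apart where the counting options are not given. The same holds for near-identical copies within the Ifit, Oas, Ifitm, Gbp, Ifna and class I families, whose values are uncertain to that extent.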

How the data were processed

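Total RNA libraries were made with a TruSeq stranded kit, per the labels' protocols. The submitters' processing notes name GSNAP, HTSeq and mm10. For counting options, annotation and gene lengths, nothing is given in the sources used here. The authors deposited 1 table of FPKM values, with no counts. The FPKM of a gene in the 6 libraries step by 1 read, which gave back whole reads for 23412 of 23412 genes (100.0%) within a relative tolerance of 3e-09. This includes 1820 genes at 0 and 1448 genes seen in 1 library, for which nothing could be checked. FPKM were compared as log2(FPKM + 1), which understates changes of low genes, with a filter of mean FPKM 1. The test was limma 3.58.1 (R 4.3.3) with an intensity trend, two-sided, no covariate or block, and Benjamini-Hochberg adjustment over 12560 genes. With 3 mice against 3, the smallest p of an exact permutation test is 0.1, and p values here rest on limma's shared spread. Replicates are separate mice. Libraries of 1 group differed by more than counting error, with chi-square over its degrees of freedom between 13.4 and 67.0.

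The members and lists were chosen with earlier results of these data known, so lists are described by counts and medians without a test. Per role, values in every library are given for the 3 tested genes with the smallest p and the 2 with the highest mean FPKM. Ifit1, Isg15, Usp18, Rsad2, Cmpk2, Oasl2, Mx1, Mx2, Stat2, Dhx58 and Ifi44 were added after their values were seen. Promoter windows are from RefSeq GRCm38.p6 and gene positions from GENCODE M21. Some items are not reported here. The scripts were tested on simulated data. Alternatives were another pseudocount, other filters, median-of-ratios and quantile scaling, a replicate block, library sex as a covariate, limma-voom on recovered reads and leaving out each library. Library sex was read from Xist and Y-linked genes and is not in the labels. The fit with that covariate compares the mutants with control 3 alone.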

Additional observations from a re-analysis of the deposited data

How the results depend on the processing

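No member was called higher in the main test. Psmb8 alone was called with the replicate block (limma adjusted p = 0.0278), where 0.533% of all tested genes were called higher. It alone was also called with limma-voom on recovered reads (adjusted p = 0.0424), where 1.44% were. Over all alternatives the limma adjusted p of Psmb8 ran from 0.0278 to 0.476. None was called with any library left out (0 in each), and none was called lower in any setting. The median difference of the members, 0.38, ran from 0.25 with library sex as a covariate to 0.50, and from 0.26 (without mutant 3) to 0.50 (without mutant 2) with a library left out. Scaling moved the median of all genes from 0.09 to -0.01 (median-of-ratios), -0.03 (quantile) and -0.04 (voom). The count of members whose groups did not overlap, 10, was 4 of 9 with a filter of mean FPKM 5 (10.4% of all tested genes). It was 18 with median-of-ratios scaling (12.6%), 9 with quantile scaling (11.3%) and 10 with voom (11%). With a library left out it ran from 10 without mutant 1 or control 2 to 31 without mutant 2. The share of all tested genes was 13.8% without mutant 1 or control 2, and 35.9% without mutant 2.

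All genes called higher, 18, were 9 with pseudocount 0.1, 4 with no filter, 28 with median-of-ratios scaling, 32 with quantile scaling, 67 with the replicate block, 10 with library sex, 181 with limma-voom and 3 to 189 with a library left out (3 without mutant 2, 189 without control 3). Genes called lower, 0, were 1 with the block, 1 with library sex, 4 with limma-voom and 0 to 4 with a library left out. Same-numbered mutants and controls did not deviate together (correlations 0.0016, 0.0367 and -0.0819). The labels do not say whether a shared number pairs mice, and these correlations cannot tell, so the pairing is unknown. No library correlated best with the library of its own number in the other group.

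Of 546 gene values under alternatives 536 kept direction and side of the threshold and 8 changed sign, in 3 genes with small differences. Stat2 was -0.0121 with quantile scaling and -0.00629 with voom. Cmpk2 was -0.0183 with library sex and -0.0202 without mutant 3, up to 0.409 without mutant 2. Usp18 was -0.0361 with quantile scaling, -0.0159 with library sex, -0.0163 with voom and -0.102 without mutant 3, up to 0.348 without mutant 2. The cause was not tested. Depth limits the low members most, since Isg15 rests on 24 to 83 reads a library, and limits the interferon genes altogether.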
